A study of Mus musculus with 16 samples.

Results

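The collagen family was examined in liver RNA from 16 C57BL/6 mouse samples, 8 from a mouse model of NASH (nonalcoholic steatohepatitis, fatty liver with inflammation) and 8 controls. All are liver biopsies; the diet or agent behind the model, age, sex, batch and whether each sample had its own animal are not in the labels. P-values therefore measure the spread between these samples, which are named here by group and label number (NASH model 1a, 1b and 2 to 7, and control 1, 3 to 7, 9 and 10). The members are all genes whose symbol in the platform annotation is Col, a number, a and a number. The rule found 42 of the 19505 genes measured, each with 1 probe set. They were grouped into 11 fibrillar, 8 basement membrane, 8 fibril-associated (FACIT) and 15 other collagens. Col7a1, Col12a1 and Col21a1 are not analysed here.

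Collagens are trimers of polypeptide chains wound into a triple helix, which needs a small glycine residue at regular steps along each chain. Fibrillar collagens assemble into the banded fibrils of scar tissue, type IV collagen forms the sheet-like network of basement membranes, and FACIT collagens decorate fibril surfaces. In the healthy liver the space beside the sinusoids holds only a thin matrix. In fibrosis, activated stellate cells and portal fibroblasts lay down type I and type III fibrils.

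Upstream bases are shown for Col3a1 and Col1a2, the fibrillar members with the largest rises in NASH model livers, both of which had a tabulated promoter window. Col5a1, which also rose, had a window too and is not shown. The 250 bases before the annotated start are from RefSeq (GRCm38.p6, both on the plus strand). The window is chr1:45311288-45311537 for Col3a1 and chr6:4505368-4505617 for Col1a2. Capitals mark CCAAT or its reverse complement ATTGG and GGGCGG or its reverse complement CCGCCC, motifs known as the CCAAT box and the GC box. No capitals of different motifs overlap in these windows.
Col3a1: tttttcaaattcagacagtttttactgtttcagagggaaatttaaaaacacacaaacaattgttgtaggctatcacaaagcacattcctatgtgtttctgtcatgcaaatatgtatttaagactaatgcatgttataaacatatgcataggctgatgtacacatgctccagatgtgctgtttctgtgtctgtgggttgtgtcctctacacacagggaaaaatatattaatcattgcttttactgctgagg
Col1a2: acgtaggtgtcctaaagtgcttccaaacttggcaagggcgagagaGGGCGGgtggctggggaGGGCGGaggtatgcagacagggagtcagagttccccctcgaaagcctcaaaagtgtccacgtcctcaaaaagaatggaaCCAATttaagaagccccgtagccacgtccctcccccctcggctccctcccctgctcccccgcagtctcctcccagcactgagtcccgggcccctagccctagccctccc
The Col1a2 window held 1 CCAAT box and 2 GC boxes, and the Col3a1 window held neither motif. Over the whole tabulated windows, 250 bases before to 50 bases after the start, 34 members had an entry. A GC box was in the windows of 21 of them (61.8%), against 38.2% of all 27025 genes, and a CCAAT box in 12 of them (35.3%), against 41.1% of all genes. Among members with an entry, the GC box was present in 5 of 7 that rose in the NASH model and 6 of 7 that fell. The starts of Col4a1 and Col4a2, which lie head to head on chromosome 8, were 21 bases apart, so their windows shared 78 bases. These matches are descriptions of letters and were not tested as binding sites.

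The values are log2 signals per probe set that the authors deposited, quantile normalized here, and each fold change is the NASH model mean minus the control mean on that scale. Tests used limma over all genes, and a gene was called higher or lower at a Benjamini-Hochberg adjusted p under 0.05. A background floor of 2.89 was taken from 1412 olfactory and vomeronasal receptor genes, which liver is not known to use. All 8 hepatocyte markers were above this floor in all 16 samples, and albumin (Alb) averaged 12.64 ± 0.02 in NASH model livers and 12.62 ± 0.05 in control livers (SD, n = 8 each). Quantile normalization gives every array the same set of values, and Alb had the same median (12.63) and highest value (12.67) in both groups. Alb is therefore a check of detection only, not of equal levels. All 16 values were above the floor for 25 collagen members, and the mean over the samples was above it for 29. All values of Col24a1, Col6a4 and Col17a1 were below it, so no fold is given for these 3.

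Type I, type III and type V fibrillar chains, a pair of type VI chains, the type IV chains Col4a1 and Col4a2, and the FACIT Col14a1 rose in NASH model livers. Another set of chains fell, among them Col5a3, Col27a1 and Col18a1. In all, 10 of 42 members rose (23.8%, against a background of 13.2% of all genes) and 7 fell (16.7%, against 13.4%), so the share that fell was near the background. The background depends on signal level: among the 4893 genes with a mean level of 3 to 5, 17.6% were called higher and 12.6% lower. In bulk samples, fewer cells of a type and less RNA per cell cannot be told apart. At least 2-fold rises were found in 6 members (14.3%, against 4.02% of all genes), namely Col3a1, Col1a2, Col1a1, Col6a3, Col5a2 and Col5a1. The groups did not overlap in 5 members that rose (11.9%, against 5.65% of all genes) and in 1 that fell (2.38%). In either direction this held for 6 of 42 members (14.3%), against 9.54% of all genes. The median over the 42 members was -0.06, beside -0.04 over all genes, since 25 members were not called. The fold changes of these 25 lay between -0.39 and 0.32.

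**Figure D1:**
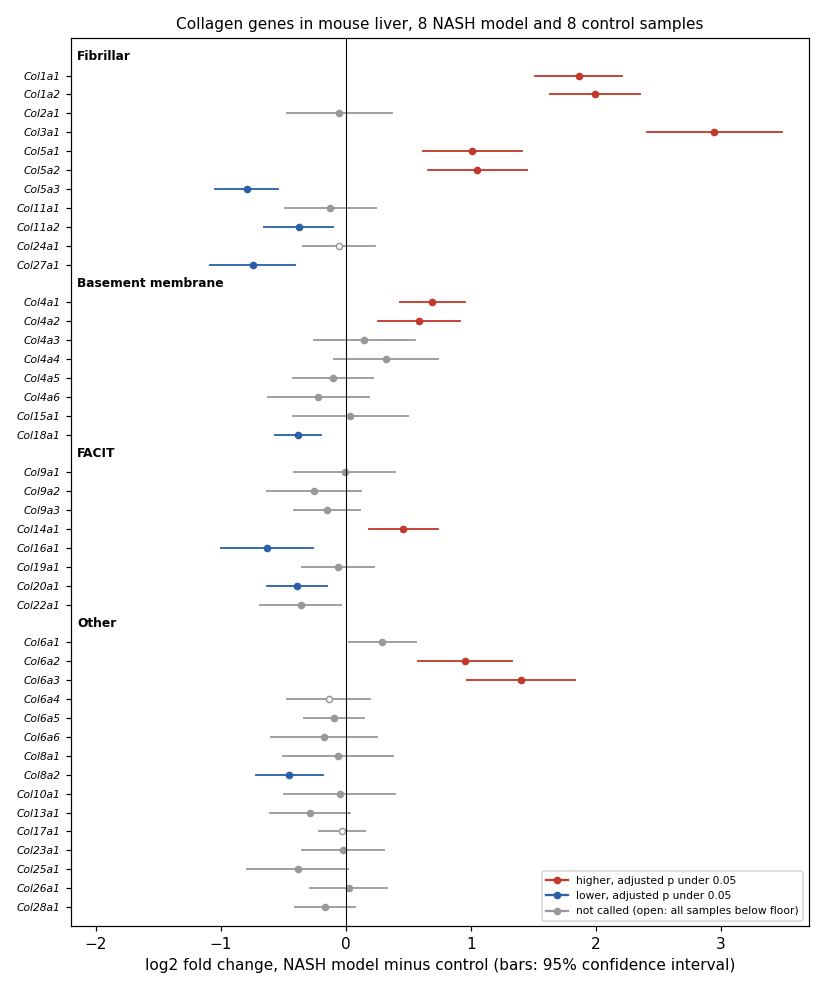
Log2 fold change (horizontal axis, NASH model minus control) of the 42 collagen genes by class, with 95% confidence intervals from limma (n = 8 per group). Red points rose, blue points fell, grey points were not called, and open points mark genes with all samples below the floor. The rises reach 2.95 (Col3a1), while no fall exceeds 0.79 in size (Col5a3).

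Fibrillar collagens held the largest changes, with 5 of 11 members higher (45.5%, against 13.2% of all genes) and 3 lower (27.3%, against 13.4%). Col3a1, the type III chain of fine reticular fibres, had a lowest, median and highest log2 signal of 7.64, 8.52 and 8.91 in NASH model livers, against 4.62, 5.37 and 6.41 in control livers. NASH model 7 was highest and NASH model 5 lowest in the model group, and the lowest model value lay above the highest control. Its mean was 8.39 ± 0.44 in NASH model livers and 5.45 ± 0.70 in control livers (SD, n = 8 each). This was a 7.70-fold rise (log2 fold change 2.95 ± 0.26 SE, adjusted p = 5.2e-08).

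Type I collagen, the main load-bearing fibril of scar, has the chains Col1a1 and Col1a2 in its usual trimer. Col1a1 ran from 6.53 over a median of 7.17 to 7.72 in NASH model livers, against 4.86, 5.40 and 5.84 in control livers. The groups did not overlap: NASH model 2 and 7 were the highest (7.72 and 7.71) and NASH model 5 the lowest. Col1a1 rose 3.64-fold (1.86 ± 0.17 SE, adjusted p = 6.6e-08). Col1a2 ran from 6.52 over 6.95 to 7.34 in NASH model livers, against 4.41, 5.02 and 5.65 in control livers. NASH model 5 was again the lowest of its group, and no control reached it. Col1a2 rose 3.98-fold (1.99 ± 0.17 SE, adjusted p = 4.3e-08).

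Type V collagen starts fibrils and limits their width. Col5a1 ran from 3.53 over 4.02 to 4.22 in NASH model livers, against 1.85, 2.94 and 3.52 in control livers. The groups did not overlap, by a margin of only 3.53 in NASH model 2 against 3.52 in control 9. Of the controls, 3 lay below the floor, so the 2.01-fold rise (1.01 ± 0.19 SE, adjusted p = 4.2e-04) may be understated. Col5a2 ran from 3.53 over 4.26 to 5.09 in NASH model livers, against 2.97, 3.23 and 3.77 in control livers. NASH model 1b lay within the control range and the other 7 above it. Col5a2 rose 2.07-fold (1.05 ± 0.19 SE, adjusted p = 2.8e-04).

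The remaining fibrillar members went the other way or were not called. Col5a3, a further type V chain, ran from 3.62 over 4.07 to 4.25 in NASH model livers, against 4.43, 4.84 and 5.09 in control livers. All 8 NASH model samples were below the lowest control, and it was the only collagen gene with separate groups in this direction (1 of 42, 2.38%). Of all genes, 9.54% had separate groups in either direction. It was 1.73-fold lower (-0.79 ± 0.12 SE, adjusted p = 4.7e-05). Col27a1, a minor fibrillar chain, fell 1.68-fold (-0.75 ± 0.16 SE, adjusted p = 0.0017), with 6 of 8 NASH model samples below the lowest control. Col11a2, a chain of the type XI fibrils of cartilage, was called lower (-0.38, adjusted p = 0.037), but 14 of 27 alternative settings lost the call. The cartilage chains Col2a1 and Col11a1 and the minor chain Col24a1 were not called. Their signals lay near or below the floor, with Col11a1 under it in 7 of 8 samples of each group.

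**Figure D2:**
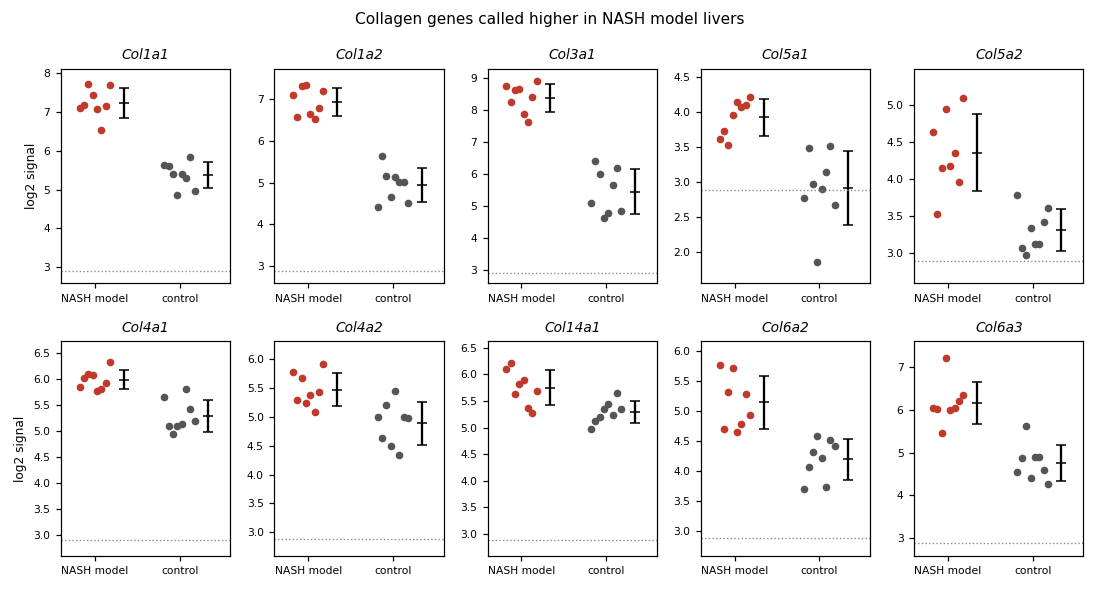
Log2 signal (vertical axis) of each sample for the 10 collagen genes that rose, NASH model left and control right in each panel. Black bars give the mean ± SD (n = 8) and the dotted line is the floor of 2.89. The groups are separate for Col1a1, Col1a2, Col3a1, Col5a1 and Col6a2 and overlap for the other 5.

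Among basement membrane collagens, the type IV chains that line most vessels rose, and the chain that releases endostatin fell, with 2 of 8 members higher (25.0%, against 13.2% of all genes) and 1 lower (12.5%, against 13.4%). Col4a1 ran from 5.78 over 5.98 to 6.33 in NASH model livers, against 4.94, 5.16 and 5.81 in control livers. Control 7 reached the lower part of the model range, and 6 of 8 NASH model samples lay above every control. Col4a1 rose 1.61-fold (0.69 ± 0.13 SE, adjusted p = 3.0e-04). Col4a2, its partner in the trimer, ran from 5.09 over 5.40 to 5.91 in NASH model livers, against 4.34, 5.0 and 5.45 in control livers. The groups overlapped, with 3 NASH model samples above the highest control. Col4a2 rose 1.50-fold (0.59 ± 0.16 SE, adjusted p = 0.0078).

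Col18a1, a multiplexin of vessel and sinusoid walls whose C-terminal fragment is endostatin, ran from 9.10 over 9.45 to 9.68 in NASH model livers, against 9.65, 9.81 and 9.88 in control livers. NASH model 1b was within the control range and the other 7 were below it. Col18a1 fell 1.30-fold (-0.38 ± 0.09 SE, adjusted p = 0.0025). Its sister multiplexin Col15a1 did not pass (0.03, 95% confidence interval -0.43 to 0.50, adjusted p = 0.93). The type IV chains Col4a3 to Col4a6, best known from kidney and other specialised basement membranes, were not called and lay near the floor. Col4a5 was under it in all 8 NASH model samples and 6 of 8 controls.

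FACIT collagens changed by small amounts, with 1 of 8 higher (12.5%, near the 13.2% of all genes) and 2 lower (25.0%, against 13.4%). Col14a1, which binds the surface of fibrils, ran from 5.28 over 5.75 to 6.22 in NASH model livers, against 4.98, 5.29 and 5.65 in control livers. The groups overlapped in 3 NASH model samples. NASH model 1a and 1b were the highest, and Col14a1 rose 1.37-fold (0.46 ± 0.13 SE, adjusted p = 0.014). Without these 2 samples the rise was 0.32 and the call was lost (adjusted p = 0.071). Col16a1 fell 1.55-fold (-0.63 ± 0.18 SE, adjusted p = 0.011). Controls 5 and 9 lay at 4.02 and 4.29, within the NASH model range of 4.01 to 4.54, and the other 6 controls lay from 4.86 to 5.51. Col20a1 fell by 0.39 (adjusted p = 0.015), and Col22a1 differed by -0.36 without passing (adjusted p = 0.095). In Col22a1, NASH model 1a stood at 4.85 and the other 7 at 3.77 to 4.10. Without NASH model 1a the difference was -0.47 and passed.

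Of the other collagens, 2 of 15 rose (13.3%, at the 13.2% of all genes) and 1 fell (6.67%, against 13.4%). Both that rose belong to type VI, which forms beaded microfibrils around cells. Col6a3 ran from 5.45 over 6.04 to 7.20 in NASH model livers, against 4.28, 4.74 and 5.61 in control livers. NASH model 3 was the highest, and NASH model 2 fell below control 4. Col6a3, whose C-terminal fragment is endotrophin, rose 2.64-fold (1.40 ± 0.21 SE, adjusted p = 3.1e-05). Col6a2 ran from 4.65 over 5.11 to 5.76 in NASH model livers, against 3.70, 4.27 and 4.58 in control livers, with no overlap. It rose 1.93-fold (0.95 ± 0.18 SE, adjusted p = 4.6e-04).

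Col6a1, the chain that joins Col6a2 and Col6a3 in the type VI trimer, had 0.29 and did not pass (adjusted p = 0.11). It passed under each of the 3 other scalings tried, at 0.35 to 0.53, and without NASH model 4, at 0.36. Its 95% confidence interval ran from 0.02 to 0.56. Col6a4, Col6a5 and Col6a6 were below the floor in all 8 NASH model samples and were not called. Col8a2, a short-chain collagen of the cornea's Descemet membrane, fell by 0.45 (adjusted p = 0.012). The call for Col8a2 was lost without NASH model 2 and 7. The transmembrane members Col13a1, Col17a1, Col23a1 and Col25a1 and the further members Col8a1, Col10a1, Col26a1 and Col28a1 were not called.

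**Figure D3:**
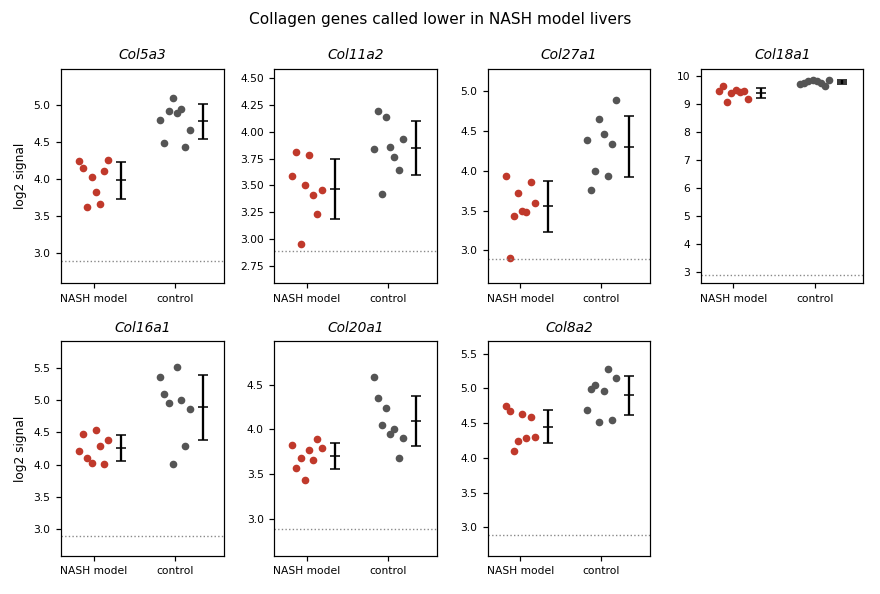
Log2 signal (vertical axis) of each sample for the 7 collagen genes that fell, NASH model left and control right in each panel. Black bars give the mean ± SD (n = 8) and the dotted line is the floor of 2.89. Groups are separate only for Col5a3, and Col16a1 shows 2 controls within the NASH model range.

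The 10 rises were called under every scaling of the arrays tried, and 4 of the 7 falls were not. The other scalings were centring each array on its median, the deposited values unchanged, and centring on 18 spike-in probe sets. The falls of Col5a3, Col27a1 and Col18a1 were also called under these 3 scalings, at -0.56, -0.54 and -0.28 with spike-in centring. The calls of Col11a2, Col20a1 and Col8a2 were lost with values as deposited and with spike-in centring, and that of Col16a1 with spike-in centring, with no change of sign. The median of all genes was -0.04 in the reported analysis, -0.12 with median centring, -0.04 with values as deposited and 0.06 with spike-in centring. Why these 4 calls were lost was not tested.

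**Figure D4:**
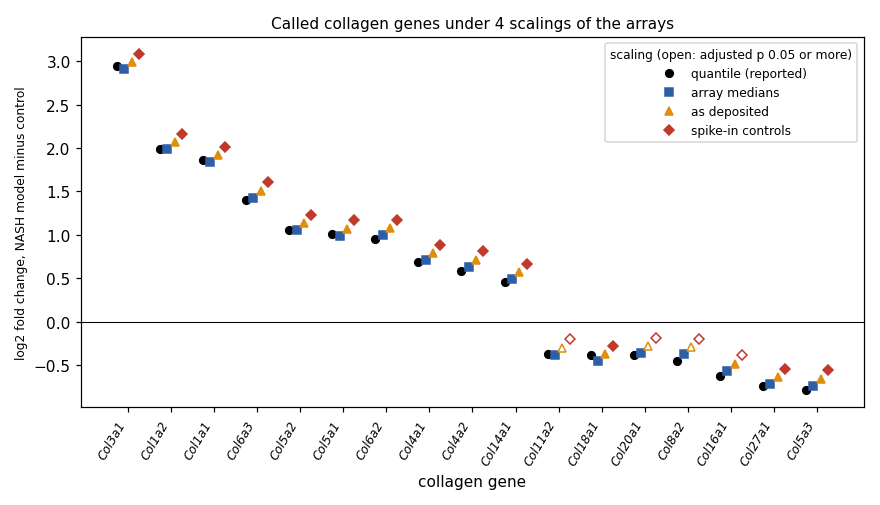
Log2 fold change (vertical axis) of the 17 called collagen genes (horizontal axis) under 4 scalings of the arrays; open symbols have an adjusted p of 0.05 or more. The 10 rises stay filled under each scaling, and Col11a2, Col20a1, Col8a2 and Col16a1 open under some.

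Pairs of chains, some of the same type and some of different types, were compared for unequal change. The log2 difference of their signals within each sample was put to a two-sided exact permutation test over samples, adjusted over 10 pairs. Both chains of type I rose by amounts that were not told apart (Col1a1 minus Col1a2, -0.13, 95% confidence interval -0.49 to 0.23, adjusted p = 0.58). The same was true of Col5a1 and Col5a2 (-0.04, interval -0.68 to 0.59, adjusted p = 0.89) and of Col4a1 and Col4a2 (0.11, interval -0.37 to 0.58, adjusted p = 0.72). These intervals are wide, so differences within them are not excluded.

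In other pairs the chains changed unequally in array signal. Each gene has 1 probe set, and whether the probe sets of a pair respond alike was not tested. Col5a2 rose while Col5a3 fell, a difference of 1.85 ± 0.23 SE (adjusted p = 5.2e-04), and the within-sample differences of the groups did not overlap. These chains were already called in opposite directions in the same samples, so this result is no separate support. Col6a1 changed less than Col6a2 by 0.66 ± 0.16 and less than Col6a3 by 1.11 ± 0.25 (adjusted p = 0.0019 for each). Between types, Col1a1 rose less than Col3a1 by 1.08 ± 0.21 and more than Col4a1 by 1.17 ± 0.16 (adjusted p = 5.2e-04 for each, with no overlap of the groups). The raw exact p behind these 3 smallest adjusted values was 0.00016, the smallest that the permutations can give. Col8a1 against Col8a2 (adjusted p = 0.33) and, between types, Col15a1 against Col18a1 (adjusted p = 0.23) did not pass.

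Several members are neighbours in the genome, and neighbours did not always change by the same amount. Col4a1 and Col4a2 on chromosome 8 rose by 0.69 and 0.59, amounts that were not told apart above. Col3a1 and Col5a2 on chromosome 1 rose by 2.95 and 1.05, a difference that was not tested. Col6a2 rose by 0.95 while Col6a1, beside it on chromosome 10, had 0.29. Col4a4 and Col4a3, also on chromosome 1, had 0.32 and 0.15, and neither passed. Of the X-linked neighbours Col4a5 and Col4a6, neither passed.

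Within the 8 NASH model samples, Col1a1 and Col4a1 varied together most closely of the 9 gene pairs examined in each group (18 relations in all). Pearson's r was 0.82 (exact permutation p = 0.012, adjusted p = 0.074), and Spearman's rho was 0.95 (exact permutation p = 0.0011, adjusted p = 0.021). Without the 2 samples farthest from the Col1a1 median, r was 0.96. Col1a1 with Col3a1 had r = 0.82 and rho = 0.64, and Col1a1 with Col1a2 had r = 0.80 and rho = 0.76. Neither passed after adjustment in the exact permutation tests (adjusted p = 0.074 for each r, and 0.29 and 0.22 for the rho values). Leaving out their 2 farthest samples gave r = 0.68 and 0.66. The other relations, those in the 8 controls included, had adjusted exact permutation p of 0.13 or more. Among the 10 members that rose, NASH model 7 was the highest of its group in 5 and NASH model 5 the lowest in 4.

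Marker lists of cell types moved beside the collagens, and their part in the collagen changes was not tested. Markers of stellate cells and myofibroblasts, the matrix-producing cells of the liver, were called higher in 7 of 11 (63.6%, against 13.2% of all genes), and the other 4 were not called. Their summed linear signal ran from 705 to 904 in NASH model livers, against 397 to 480 in control livers. The contractile actin Acta2 rose by 1.49 ± 0.27 and the receptor Pdgfrb by 1.67 ± 0.13, while Lrat, which marks quiescent stellate cells, had 0.27 and did not pass. The Acta2 groups overlapped, with 4 of 8 NASH model samples above the highest control. Reln (0.15), Hand2 (0.28) and Lhx2 (-0.08) did not pass either. Portal fibroblast markers were higher in 5 of 8 (62.5%, against 13.2% of all genes), with sums of 154 to 468 in NASH model livers and 86.4 to 164 in control livers.

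Cholangiocyte markers were higher in 5 of 8 (62.5%, against 13.2% of all genes), with sums of 118 to 670 in NASH model livers and 122 to 219 in control livers. Macrophage markers were higher in 7 of 7 measured (100%, against 13.2% of all genes), of 8 listed. Their sums were 2011 to 2798 in NASH model livers and 169 to 269 in control livers. Gpnmb, which weighs heavily in these sums, averaged 10.4 in NASH model livers and 2.92 in control livers on the log2 scale. This list, like the others, was chosen with earlier results of these data known, so its count is no separate support. Endothelial markers fell in 5 of 8 (62.5%, against 13.4% of all genes) and rose in 1, with sums of 570 to 799 in NASH model livers and 779 to 1039 in control livers. Which cells the changes of the type IV and type XVIII chains come from was not tested. Hepatocyte markers fell in 4 of 8 (50%, against 13.4% of all genes), with the other 4 not called and sums of 21572 to 22672 in NASH model livers and 21913 to 23894 in control livers. The 4 not called averaged 12.1 to 12.6 on the log2 scale in NASH model livers and make up most of these sums. The 4 that fell averaged 5.82 to 9.05 there, so the sums hardly show their falls. Mesothelial markers, which would mark liver capsule, had 0 of 5 measured (of 6 listed) called by limma, also at an unadjusted p under 0.05. Their sums were 26.9 to 54.4 in NASH model livers and 32.2 to 51.4 in control livers, and Upk1b was below the floor in all samples. Msln was below it in 6 of 8 samples of each group, and Lrrn4 in 7 of 8 NASH model samples and all 8 controls. With so many values near background, these markers say little about capsule content.

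Genes that make, bind or cleave collagen rose more often than they fell, with 24 of 46 higher (52.2%, against 13.2% of all genes) and 3 lower (6.52%, against 13.4%). These 46 are the measured genes of 52 listed. Their median log2 fold change was 0.38, beside -0.04 over all genes. The counts of each list below read against the same shares of all genes. Chain modification enzymes were higher in 7 of 13 and lower in 1, the prolyl 4-hydroxylase chain P4ha2 (-0.50 ± 0.11), whose call was lost with spike-in centring. Crtap, a partner of the prolyl 3-hydroxylases, rose by 1.52 ± 0.11 (adjusted p = 4.6e-09), the prolyl 3-hydroxylase P3h2 by 0.92 ± 0.17 and the hydroxylysine galactosyltransferase Colgalt1 by 0.83 ± 0.09. Of 8 folding and export genes 3 were higher and the other 5 were not called, although 2 were called lower with median centring. Sparc, a collagen-binding matricellular protein, rose by 1.86 ± 0.15, the collagen chaperone Serpinh1 (HSP47) by 1.20 ± 0.17 and the transcription factor Creb3l1 by 0.73 ± 0.19.

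Of 7 genes that remove propeptides from procollagen, 1 was higher (14.3%, near the 13.2% of all genes) and 2 were lower (28.6%, against 13.4%). All samples were below the floor for 2 of the 7. Bmp1, the procollagen C-proteinase, ran from 6.66 to 7.35 in NASH model livers, against 7.43 to 7.97 in control livers. The groups did not overlap, and it fell by 0.75 ± 0.12 (adjusted p = 7.1e-05). Its enhancer Pcolce rose by 0.55 ± 0.14, while the related Pcolce2 fell by 1.0 ± 0.15 with separate groups. Of 5 listed lysyl oxidases, which crosslink fibrils, 4 were measured and 3 were higher: Loxl1 by 1.77 ± 0.15, Lox by 1.11 ± 0.23 and Loxl3 by 0.83 ± 0.14. For Lox, 6 of 8 controls lay below the floor.

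Collagen receptors were higher in 6 of 8. The uptake receptor Mrc2 rose by 2.01 ± 0.20, with 6 of 8 controls below the floor, and the inhibitory leukocyte receptor Lair1 by 1.08 ± 0.14. The integrin chain Itga2 was below the floor in every control and in 4 of 8 NASH model samples. It rose at least 1.13-fold (adjusted p = 0.0017), a bound from the NASH model mean, which includes those 4 samples. Genes of collagen cleavage were higher in 4 of 6. The gelatinase Mmp2 rose by 2.49 ± 0.25, the lysosomal collagenase Ctsk by 2.35 ± 0.20 and the collagenase Mmp13 by 1.89 ± 0.24. For Mmp13, 7 of 8 controls lay below the floor, and for Ctsk 4 did.

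**Figure D5:**
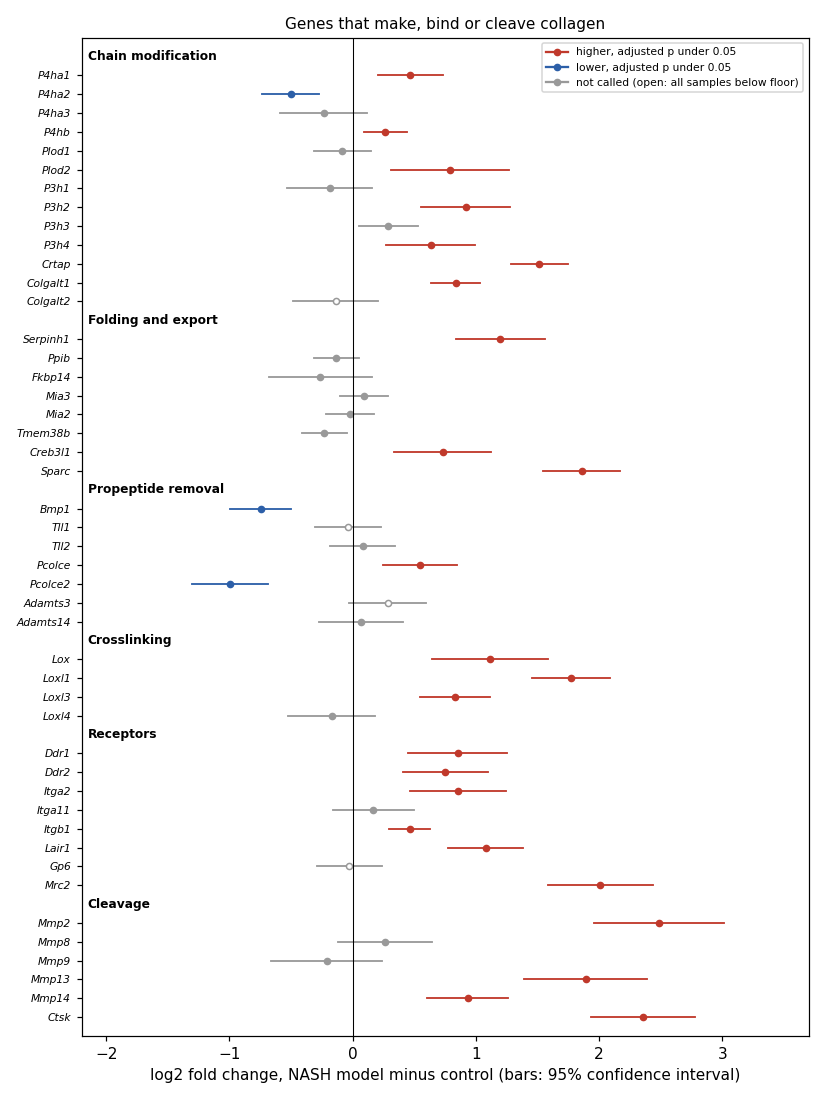
Log2 fold change (horizontal axis, NASH model minus control) of 46 genes that make, bind or cleave collagen, with 95% confidence intervals from limma (n = 8 per group). Red points rose, blue points fell, grey points were not called and open points mark genes with all samples below the floor. P4ha2, Bmp1 and Pcolce2 lie left of 0 among the called genes, and Mmp2 has the largest rise (2.49).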

How the data were processed

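Total RNA was isolated with TRIzol and labelled with biotin by the Affymetrix protocol for 1-colour arrays, per the labels' protocols. The authors deposited log2 values for 29129 probe sets. Their summarising and normalization method and genome build are not given in the sources used here. The platform annotation gave a single gene symbol for 19572 of them, or 19505 genes. The column medians ran from 3.52 to 3.66, so the values were quantile normalized, which changed no value by more than 0.16. Per gene, the probe set with the highest mean was kept.

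Groups were compared with limma 3.58.1 in R 4.3.3 (lmFit, eBayes, group as the only term, two-sided). Permutation tests used Python 3.11.15. On simulated data with 200 changed genes among 19505, limma recovered 38.0% of changes of 0.5 on the log2 scale, 93.0% of 1 and 100% of 2. In the data 5196 genes (26.6%) were called, far more than were changed in the simulation. The adjusted p thus sets a different cut-off, and these shares do not measure the sensitivity in the data. Full statistics were given for Col1a1, Col1a2, Col3a1, Col5a1, Col5a2, Col4a1, Col4a2 and Col6a3, and for other members called with a log2 fold change of at least 1. Other collagens could be named under their class. Each list for collagen handling had its 3 called members with the largest changes named. Alb, Acta2, Pdgfrb, Lrat, Reln, Hand2, Lhx2, Gpnmb, Msln, Lrrn4, Upk1b and P4ha2 are named as checks or marker examples. Members and lists were chosen with earlier results of these data known. NASH model 1a and 1b differed by an SD of 0.39, against 0.34 to 0.47 in the 27 other pairs of that group, and were kept apart. Protein sequences were not used here. The number of arrays limits the precision.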

Additional observations from a re-analysis of the deposited data

Results flagged for a closer look

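In the 39 collagen genes with any sample above the floor, each group of 8 was searched for a sample standing far from the others, and 4 of 78 searches found one, while chance gives about 1 in 20. Col22a1 in NASH model 1a was 4.85, against 3.77 to 4.10 in the other 7. Col28a1 in NASH model 7 was 4.71, against 3.99 to 4.28 in the other 7. Col6a1 in control 7 was 4.40, against 4.70 to 4.95 in the other 7 controls. Col6a3 in control 4 was 5.61, against 4.28 to 4.91 in the other 7 controls.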

How the results depend on the processing

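Under 27 alternatives, 9 of 10 rises kept their call (Col14a1 lost it without NASH model 1a and 1b), as did 3 of 7 falls (Col5a3, Col27a1 and Col18a1), and 23 of 25 uncalled members stayed uncalled where tested, with Col6a1 and Col22a1 as the exceptions (16 of the 25 were not tested without the dimmest 40% of genes, which left 26 alternatives). No called member changed sign. The count of lower members was 4 with values as deposited and 3 with spike-in centring. FACIT collagens called lower were 1 and 0 under these scalings, and other collagens called lower were 0 under each (limma, at unadjusted p under 0.05: 1 FACIT with spike-in centring, and 1 and 0 other collagens). Without NASH model 1a and 1b, 0 FACIT collagens were higher (1 unadjusted), and without NASH model 2 and 7, 0 other collagens were lower (2 unadjusted). Leaving out single samples gave 10 to 11 higher and 6 to 8 lower members. No difference between chains changed its call, but these were not run with the dim-gene filter, eBayes options or array weights, which the permutation test does not use, nor with the clock score, and 5 pairs cannot pass a permutation test. Same-numbered samples did not deviate together (correlations of -0.02 to 0.06), so the numbers were not taken as pairs. The replicate block over the 10 samples with shared numbers is not among the 27 alternatives. With it, 8 members were higher and 4 lower, with 1 fibrillar lower, 1 basement membrane higher, 0 FACIT higher (limma, 0 unadjusted) and 1 FACIT lower. At least 1 of Col4a1 and Col4a2, and at least 1 of Col5a3 and Col27a1, thus lost the call there. The same 10 samples without the block, chosen after seeing the data, gave 8 higher and 5 lower, with 1 fibrillar lower, 1 basement membrane higher and 0 FACIT higher (1 unadjusted). Array signals near the floor of 2.89 compress differences.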

Other observations

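Col15a1, the multiplexin that was not called, had a wider spread among controls than among NASH model samples, a difference that was not tested. NASH model values ran from 4.28 to 5.21. Controls 5, 6 and 10 lay at 4.19, 4.17 and 4.01, and the other 5 controls lay from 4.84 to 5.46. The SD was 0.30 in NASH model livers and 0.63 in control livers. Its sister gene Col18a1 ran from 9.65 to 9.88 over the controls.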
